A study of Mus musculus with 40 samples.

Results

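Albumin, alpha-fetoprotein and 8 other genes of fetal hepatocytes were followed across mouse fetal livers whose mothers ate diets of different fat and folic acid content. The 10 genes, out of 20593 in the deposited table, were picked by symbol as major secreted proteins of the fetal hepatocyte plus the fetal marker Gpc3: Alb, Afp, Ahsg, Fetub, Ttr, Rbp4, Vtn, Gc, Apoh and Gpc3. Each was found as 1 row. The samples were livers of male and female C57BL/6 fetuses at gestational day 18.5, 1 bulk RNA library each, from dams kept on their diet for 13 weeks before mating and through pregnancy. The control diet (CD) gave 10% of its energy as fat and 2 mg/kg folic acid. The supplemented control diet (CDF) gave 10% fat and 10 mg/kg folic acid. The western diet (WD) gave 45% fat and 2 mg/kg, and the supplemented western diet (WDF) 45% fat and 10 mg/kg. Each of the 8 diet and sex groups had 5 libraries. CD female 4 and CDF female 5, whose profiles were lung-like, were set aside, which left 38 libraries, with 4 in each of those 2 groups. Because dams and litters are not named in the labels, the p-values rest only on differences between these fetuses, and siblings may be among them.

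Fetal hepatocytes secrete most plasma proteins. Albumin and alpha-fetoprotein are sister carrier proteins encoded side by side; in rodents alpha-fetoprotein is abundant before birth and is silenced afterwards, while albumin stays high in mature hepatocytes. Late in gestation the liver is also a site of red cell formation, so its RNA is a mixture of hepatocyte and blood cell RNA. In bulk tissue, fewer cells of a type and less RNA per cell cannot be told apart.

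Positions are in mm10 from the GENCODE annotation. Alb (chromosome 5, 90460897 to 90476602, plus strand) was followed after 14.1 kb by Afp (90490737 to 90508907, plus strand). Gc, the vitamin D-binding protein of the same family, lay 1003 kb from Alb on the minus strand (89417522 to 89457898). Ahsg, which encodes fetuin-A, an inhibitor of calcification (chromosome 16, 22891277 to 22899449), and Fetub, which encodes fetuin-B, an inhibitor of the protease that hardens the egg's zona pellucida (22918334 to 22939778), were also neighbours, 18.9 kb apart. Vtn lay on chromosome 11 (78499091 to 78502324), as did Apoh (108343354 to 108414396). Rbp4 lay on chromosome 19 (38116629 to 38125281) and Gpc3 on the X chromosome (52272426 to 52613950).

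The promoters of 4 of these genes are shown because they share a short sequence. Promoter sequences came from RefSeq (GRCm38.p6, the same build) and were matched by symbol for 9 of the 10 genes. The 250 bases before each start were searched for GTTAAT, part of the site bound by HNF1 factors (hepatocyte regulators), on both strands, and for TATAAA, the core of the TATA box, on the gene's strand. GTTAAT was found before 4 of the 9 genes (Alb, Afp, Gc and Vtn), against 6.43% of 32851 RefSeq promoters. TATAAA was also found before 4 (Afp, Fetub, Rbp4 and Vtn), against 7.59%. Fetub and Rbp4 have 2 promoter entries each and were counted if either had a match, while the percentages count single promoters. The 120 bases before the start are printed 5′ to 3′ on the gene's strand, ending before the more upstream of the RefSeq and GENCODE starts; capitals mark the matches, which do not overlap each other; in Vtn the GTTAAT lies on the other strand and reads as ATTAAC. A match is a description of letters, not a site shown to be used.
Alb, chr5:90460750-90460869, plus strand: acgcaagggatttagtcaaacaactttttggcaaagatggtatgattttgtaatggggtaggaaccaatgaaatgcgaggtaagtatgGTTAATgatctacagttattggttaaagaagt
Afp, chr5:90490594-90490713, plus strand: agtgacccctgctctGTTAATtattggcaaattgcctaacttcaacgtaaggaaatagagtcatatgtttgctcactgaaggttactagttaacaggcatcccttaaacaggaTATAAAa
Gc, chr5:89457899-89458018, minus strand: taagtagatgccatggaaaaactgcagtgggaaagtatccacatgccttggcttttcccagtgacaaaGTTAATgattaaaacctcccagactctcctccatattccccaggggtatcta
Vtn, chr11:78498971-78499090, plus strand: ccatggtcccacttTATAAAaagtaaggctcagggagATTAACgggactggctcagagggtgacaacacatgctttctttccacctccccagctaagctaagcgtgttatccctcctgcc
The GTTAAT match began 32 bases before the RefSeq start in Alb, 105 before it in Afp, 52 in Gc and 112 in Vtn. TATAAA began 7 bases before a RefSeq start in Afp, 31 in Fetub, 28 in Rbp4 and 135 in Vtn.

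Values are read counts divided by size factors (normalized read counts), given here in kilocounts, each 1000 normalized counts, unless stated. They summed to 15002 to 27817 kilocounts per library over the 38, and the 10 genes took 7.27 to 16.0% of that sum. All 10 hepatocyte markers checked, which include the members Alb, Afp and Ttr, were above 1000 normalized counts in all 38 libraries. Alb and Afp passed this cutoff in the libraries set aside too, so it does not by itself show a library to be liver. In the libraries set aside, Alb was at 7.71 kilocounts (CD female 4) and 5.28 (CDF female 5), 0.658% and 0.451% of the median of the 38. Gpc3 was less reduced there, at 38.5% and 35.8% of that median. The summed level of 10 lung markers was 163699 and 105809 normalized counts in these 2, against 683 to 41732 in the 38; CD female 5 (41732) and CDF female 4 (30012) were the highest of those kept.

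2 of the 38 libraries, CDF female 4 and CD male 4, had the lowest correlation with the median profile of the other libraries (0.901 and 0.934), followed by CD female 5 (0.937). The first 2 also stood apart in Alb and Afp. Of 15377 genes tested, 1845 (12.0%) were higher in both than in each of the other 36 libraries and 1459 (9.49%) were lower. The median transcript length was 1526 nt for the higher genes and 3958 nt for the lower ones, against 2789 nt for all genes tested. Whether RNA quality or preparation played a part was not tested. Results that rest on these libraries are given with and without them, or the library is named beside them.

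Per kb of transcript, Alb was the most abundant of the 10 genes, with a median of 576 kilocounts per kb and place 3 among all genes by median place. Afp followed at 244 (place 6) and Ahsg at 202 (place 8). Ttr, the thyroxine carrier, was at 47.1, and Apoh, a phospholipid-binding plasma protein, at 42.4. Rbp4, the retinol carrier that travels with transthyretin, was at 20.9, Gc at 17.8 and Vtn, the adhesion protein vitronectin, at 16.2. Gpc3, a cell-surface proteoglycan of fetal liver, and Fetub were the least abundant, at 3.86 and 2.95. By median place among genes they ran from 3 for Alb to 365 for Fetub.

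Alb varied 2.33-fold over the 38 libraries in normalized counts, from 642 kilocounts in CD male 4 through a median of 1171 to 1497 in WDF female 4. It made up 2.37 to 9.29% of a library's counts (median 6.996%). The 2 lowest values were those of CD male 4 (642) and CDF female 4 (658); the other 36 libraries ran from 893 to 1497. Group means lay close together: 1240 ± 243 (SD, n = 4) in CD females, 1240 ± 197 (n = 5) in WDF females, 1190 ± 179 (n = 5) in CDF males, 1180 ± 202 (n = 5) in WD females, 1130 ± 315 (n = 5) in CD males, 1090 ± 147 (n = 5) in WD males, 1090 ± 180 (n = 5) in WDF males and 1030 ± 270 (n = 4) in CDF females. Each step in that order was smaller than the SD of either neighbour.

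Afp ran from 394 kilocounts in CD male 5 through a median of 503 to 878 in CDF female 4, a 2.23-fold range. Its 2 highest values were those of CDF female 4 (878) and CD male 4 (834), the same libraries that were lowest in Alb, and the other 36 ran from 394 to 675. Group means were 586 ± 198 (n = 4) in CDF females, 558 ± 168 (n = 5) in CD males, 536 ± 112 (n = 5) in CDF males, 532 ± 34.0 (n = 5) in WD females, 522 ± 86.7 (n = 5) in WDF females, 485 ± 45.7 (n = 5) in WD males, 477 ± 49.4 (n = 4) in CD females and 472 ± 36.3 (n = 5) in WDF males. The CDF female and CD male groups had the widest spread, and each holds 1 of the 2 libraries that stood apart.

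The Alb to Afp ratio, which rises in rodents as the liver matures, averaged 2.30 ± 0.576 (SD, n = 38). Alb exceeded Afp in 36 of 38 libraries. In 25 libraries the ratio was from 2 to 3, in 8 from 1 to 2 and in 3 at 3 or more. It fell below 1 in CD male 4 (0.770) and CDF female 4 (0.7496), and the third lowest library was WD female 5 at 1.58.

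In males, the 5 CD libraries had ratios of 2.56, 2.54, 2.23, 0.770 and 3.00. The 5 CDF males had 1.63, 2.18, 2.74, 2.04 and 2.87, and the 5 WD males 1.90, 1.74, 2.14, 3.00 and 2.63. The 5 WDF males had 2.83, 1.77, 2.06, 2.78 and 2.17. Apart from CD male 4, the CD males ran from 2.23 to 3.00 and lay within the range of the WD males, and the other 3 male groups reached down to 1.63, 1.74 and 1.77. In females, the 4 CD libraries had 2.96, 2.64, 2.65 and 2.10, and the 4 CDF libraries 2.91, 2.03, 2.23 and 0.7496. The 5 WD females had 2.87, 1.94, 2.47, 2.32 and 1.58, and the 5 WDF females 3.30, 1.89, 1.97, 2.95 and 2.11. Every pair of groups overlapped.

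**Figure D1:**
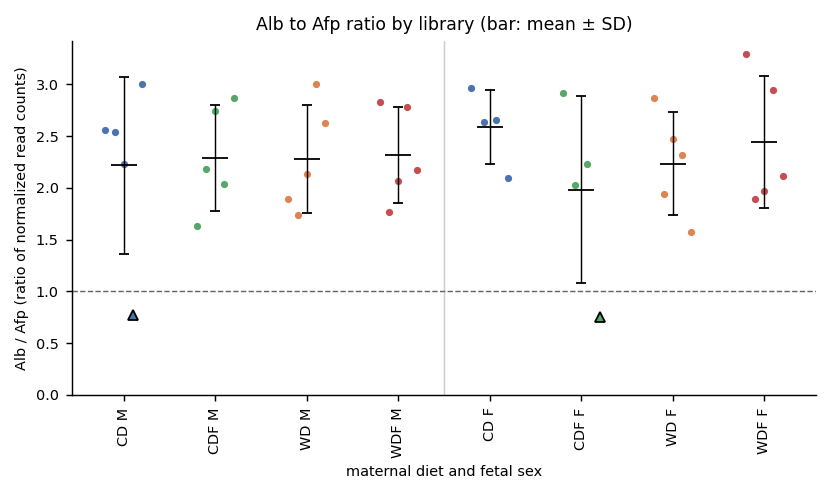
Ratio of Alb to Afp normalized read counts in each of 38 libraries (vertical axis), by maternal diet and fetal sex (horizontal axis, M male, F female); bars are group means ± SD, triangles are CD male 4 and CDF female 4, and the dashed line is a ratio of 1. The 2 triangles, at 0.770 and 0.7496, are the only libraries below the line.

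The ratio was compared on the log2 scale in 8 comparisons with an exact two-sided permutation test, adjusted over the 8. None passed: unadjusted p ran from 0.270 to 0.857, and all 8 adjusted values were 0.857. The largest difference was that of CDF against CD females, at -0.53 ± 0.44 (SE, n = 4 and 4), where the smallest p the design allows is 0.0286. Without CDF female 4 that value was -0.12. WD minus CD females gave -0.23 ± 0.18, the comparison with the smallest p (exact permutation p = 0.270, n = 5 and 4). WDF minus CDF females gave 0.42 ± 0.46, and it was 0.0090 without CDF female 4. WDF minus WD was 0.03 ± 0.20 in males and 0.12 ± 0.22 in females. The SEs of the 8 comparisons ran from 0.18 to 0.46 on the log2 scale.

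**Figure D2:**
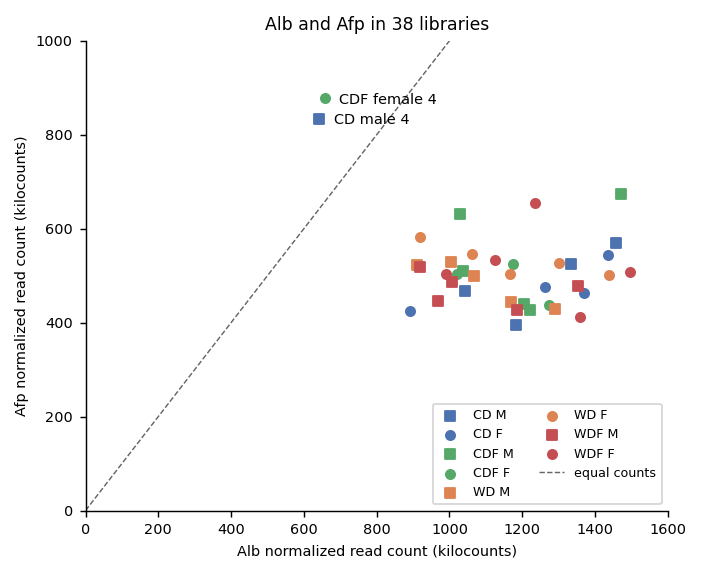
Afp against Alb, both in kilocounts, in 38 libraries (squares males, circles females, colour by diet); the dashed line marks equal counts. CDF female 4 and CD male 4 lie above the line, apart from the 36 libraries between 893 and 1497 kilocounts for Alb.

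Across the 38 libraries, Alb and Afp had a Pearson r of -0.45 on log2 values (permutation p = 0.00487, adjusted p = 0.0138 over 48 relations; Spearman rho -0.16, permutation p = 0.346, adjusted p = 0.552). Without CD male 4 and CDF female 4, which were also the 2 libraries farthest from the Alb median, r was 0.024, so the relation rested on those libraries. The log2 ratio was higher where Gpc3 was higher (r = 0.71, permutation p = 1e-05, adjusted p = 4.36e-05; rho = 0.59, adjusted permutation p = 6e-04), and r was 0.52 without the 2 libraries. A permutation p of 1e-05 is the smallest that 100000 draws can give. The ratio contains Alb, which by itself had r = 0.88 with Gpc3 (0.84 without the 2 libraries), so these are not separate relations. Afp with Gpc3 had r = -0.29 (0.22 without the 2 libraries). With the mean log2 level of 16 erythroid markers, Alb had r = -0.34 (adjusted permutation p = 0.0781; rho = -0.42, adjusted permutation p = 0.0264). The ratio had r = -0.30 with that level (adjusted permutation p = 0.135; rho = -0.44, adjusted permutation p = 0.0197). Without CD male 4 and CDF female 4, r was -0.46 for Alb and -0.50 for the ratio; their cause was not tested.

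The other members varied 1.90-fold (Gc) to 3.99-fold (Fetub) between their lowest and highest library. Ahsg ran from 195 to 391 kilocounts (median 300), Ttr from 36.6 to 75.5 (median 55.9), Gc from 23.5 to 44.7 (median 32.1) and Apoh from 34.4 to 67.5 (median 50.5). Gpc3 ran from 4.63 in CD male 4 to 11.2 in CDF male 2 (median 8.55), and CDF female 4 was its second lowest at 6.51. Rbp4 ran from 16.8 to 34.3 (median 24.3) and Vtn from 19.1 to 48.9 (median 28.2). Fetub had the widest range, 3.99-fold, from 2.17 in WDF female 2 to 8.67 in CDF female 4 (median 4.72), with a coefficient of variation of 32.1% against 14.2% for Ttr, the steadiest. Fetub, Rbp4 and Vtn each had their highest library in CD male 4 or CDF female 4, while Alb and Gpc3 had their lowest there.

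**Figure D3:**
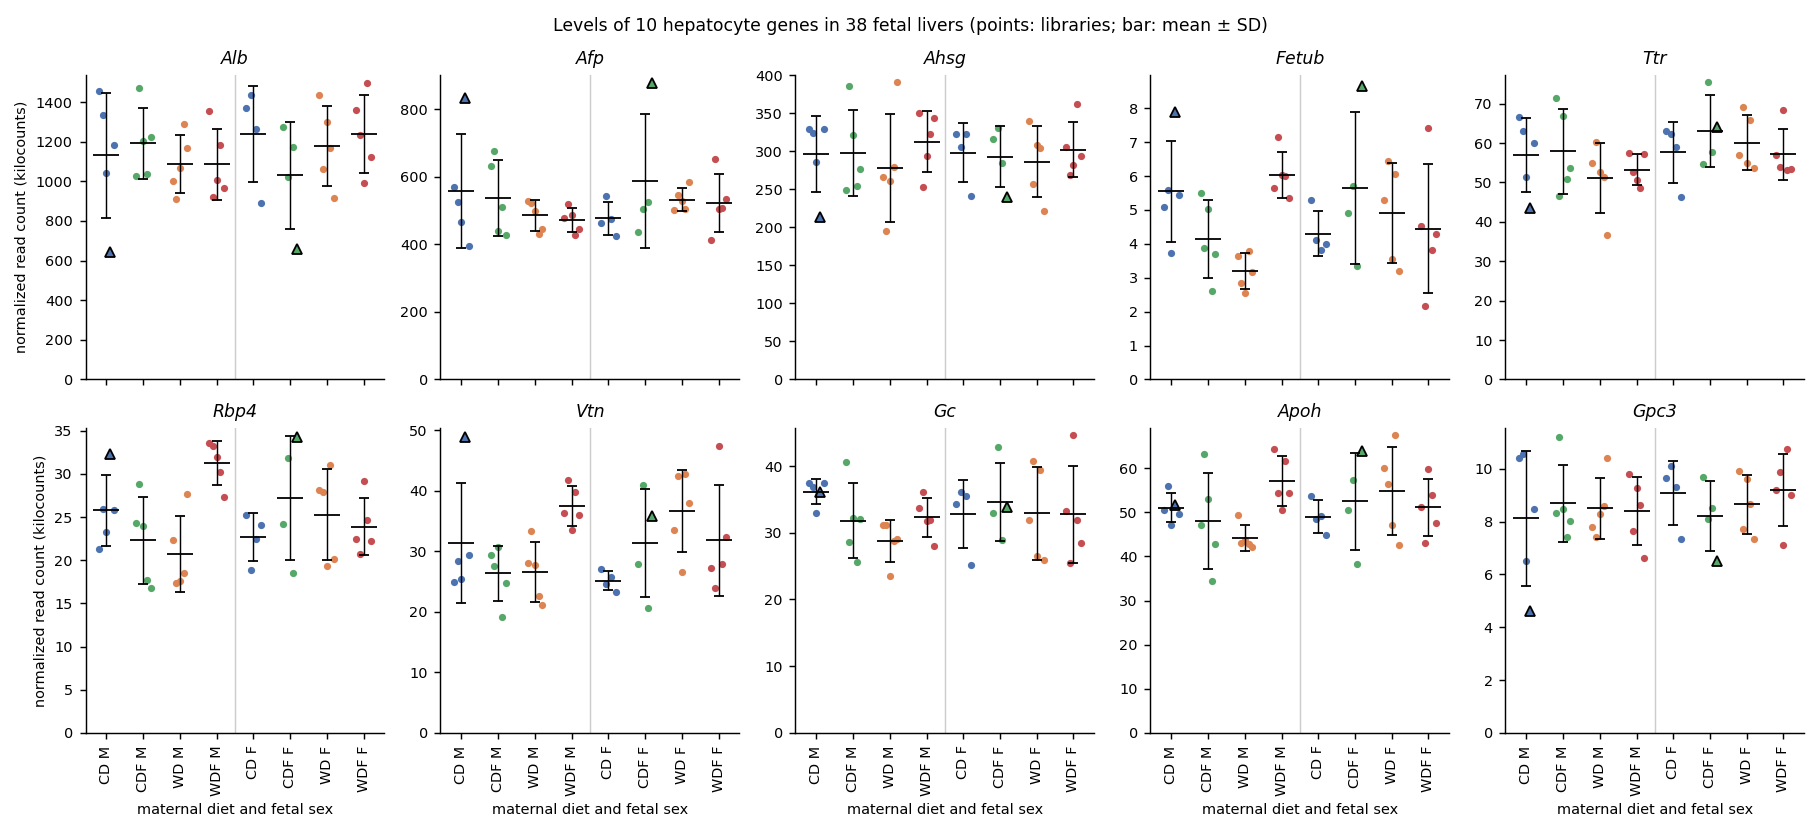
Normalized read counts in kilocounts (vertical axes, starting at 0) of the 10 genes in each of 38 libraries, by maternal diet and fetal sex; bars are group means ± SD and triangles are CD male 4 and CDF female 4. In the Fetub panel the WDF males, at 5.35 to 7.14, lie above all WD males, at 2.54 to 3.79, while Alb and Afp show no such step.

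The study asked how extra folic acid and a high-fat maternal diet act on the fetal liver of each sex. Each member was tested with limma in 8 comparisons between groups, with p-values adjusted over all 15377 genes tested. No member passed the adjusted threshold of 0.05 in any of the 8, nor did any other gene (0% of genes in each). The members are therefore described by their values, their unadjusted p and whether the groups overlapped, beside the share of all genes that met the same rule.

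In males on the western diet, 4 of the 10 members had higher values at 10 mg/kg folic acid with an unadjusted p under 0.05 (Fetub, Rbp4, Vtn and Apoh), against 4.77% of all genes in that direction, and none was lower. These 4 belong to a set that varied together over the 38 libraries, with r from 0.50 to 0.80 over its pairs. They are not 4 independent results. The median log2 difference of the 10 members was 0.18, against 0.01 for all genes. In 3 of them the groups did not overlap, against 1.34% of genes. Alb, Afp and Gpc3 had differences close to 0.

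Fetub stood at 5.65, 7.14, 6.02, 5.99 and 5.35 kilocounts in the 5 WDF males and at 3.64, 2.84, 2.54, 3.79 and 3.16 in the 5 WD males. Every WDF male was above every WD male. The log2 difference was 0.93 ± 0.25 (SE), a fold of 1.90, with a limma adjusted p of 0.421.

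Rbp4 was at 33.6, 33.2, 32.0, 30.2 and 27.3 kilocounts in WDF males and at 22.4, 17.4, 17.6, 18.6 and 27.7 in WD males. The groups overlapped through WD male 5 alone, which exceeded WDF male 5. The log2 difference was 0.61 ± 0.17 (limma adjusted p = 0.445).

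Vtn was at 36.3, 41.8, 33.5, 39.8 and 35.96 kilocounts in WDF males and at 28.0, 33.4, 27.7, 22.6 and 21.1 in WD males. The groups met closely but did not overlap, at 33.5 and 33.4. The log2 difference was 0.51 ± 0.19 (limma adjusted p = 0.480).

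Apoh was at 64.4, 54.4, 50.6, 61.6 and 54.3 kilocounts in WDF males and at 49.5, 43.0, 43.8, 42.8 and 42.1 in WD males, with no overlap. Its log2 difference was 0.36 ± 0.14 (limma adjusted p = 0.501). The other 6 members had overlapping groups: Ahsg differed by 0.19 ± 0.16, Gc by 0.17 ± 0.15, Ttr by 0.08 ± 0.14, Alb by -0.0066 ± 0.20, Afp by -0.039 ± 0.17 and Gpc3 by -0.022 ± 0.17. With library weights in limma, 2 members passed in this comparison, Fetub (adjusted p = 0.0104) and Rbp4 (adjusted p = 0.0106), against 4.04% of genes (621 of 15377).

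Markers of other cell types stood as follows in these groups. Of 16 erythroid markers, 13 were lower in WDF males and 3 higher; none was listed at 0, and their summed level was 1840191 to 3354202 normalized counts against 1126892 to 3913632 in WD males. Of 5 megakaryocyte markers, 5 were higher, with sums of 4395 to 5823 against 3033 to 4073. Of 10 lung markers, 9 were higher. WDF male 2 had a lung sum of 9421, against 917 to 1083 in the other WDF males and 798 to 1050 in WD males. Sftpc, a defining lung gene, was 0 to 5978 in WDF and 0 to 14.7 in WD males. The lung markers were not counted again without WDF male 2. With the erythroid level as a covariate the Fetub difference was 0.93 and that of Vtn 0.60, and without WDF male 2 they were 0.86 and 0.47. The part of the megakaryocyte markers in these differences was not tested.

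In females on the western diet the same change of folic acid gave no member with an unadjusted p under 0.05, against 1.44% of genes, and no member without overlap, against 0.306%. Fetub was at 4.54, 2.17, 7.42, 3.81 and 4.29 kilocounts in WDF females and at 5.29, 6.44, 3.54, 6.05 and 3.19 in WD females, so the values were interleaved. The members' log2 differences ran from -0.23 to 0.09. The difference between the sexes in this response (females minus males) had an unadjusted p under 0.05 and a lower value in females for 4 members, against 3.77% of genes: Fetub (-1.12 ± 0.36), Vtn (-0.74 ± 0.27), Rbp4 (-0.68 ± 0.24) and Apoh (-0.45 ± 0.20). None passed adjustment (limma adjusted p = 0.580 for each, and 0% of genes passed). They are again the 4 genes that varied together. With library weights 3 of them passed (Fetub, Rbp4 and Vtn), against 3.77% of genes (579 of 15377).

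On the control diet, extra folic acid gave 0 of 10 members with an unadjusted p under 0.05 in males (3.49% of genes) and 0 of 10 in females (7.78% of genes), and no member without overlap (0.722% and 2.75% of genes). Fetub in CDF males, at 5.49, 3.87, 5.03, 2.60 and 3.70 kilocounts, overlapped with CD males at 5.09, 5.59, 3.72, 7.87 and 5.45. The response to folic acid was compared between the diets in males: 4 members were more positive on the western diet with an unadjusted p under 0.05, against 6.10% of genes. These were Fetub (1.35 ± 0.36), Rbp4 (0.83 ± 0.24), Vtn (0.74 ± 0.27) and Apoh (0.48 ± 0.20), with limma adjusted p from 0.286 to 0.376. They are the same 4 genes that varied together, not 4 independent results. Leaving out each library in turn, CD male 4 among them, gave 1.20 to 1.49 for Fetub and 0.57 to 0.82 for Vtn. In females 0 of 10 had an unadjusted p under 0.05 in either direction, against 12.9% of genes. The control diet females include CDF female 4 and CD female 5, which had low correlations with the other libraries (0.901 and 0.937). For females, no count under this p rule is given without them.

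The effect of maternal fat at 2 mg/kg folic acid in males was compared with the same WD males, so these values share libraries with those above. Here 2 members were lower on the western diet with an unadjusted p under 0.05, against 3.30% of genes: Fetub (-0.77 ± 0.25, limma adjusted p = 0.673) and Gc (-0.34 ± 0.15, limma adjusted p = 0.715). Gc was at 37.4, 36.8, 33.0, 36.1 and 37.5 kilocounts in CD males and at 31.1, 31.2, 23.5, 28.8 and 29.0 in WD males. It was the only member whose groups did not overlap in this comparison, against 0.676% of genes lower in that way. The Fetub value was -0.63 without CD male 4 and -0.78 with the erythroid covariate; of the 16 erythroid markers 13 were higher in WD than in CD males, and 9 of 10 lung markers were lower. With library weights both passed (Fetub adjusted p = 0.0408, Gc adjusted p = 0.0474), against 0.943% of genes (145 of 15377).

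At 10 mg/kg in males, 3 members were higher on the western diet with an unadjusted p under 0.05, against 3.43% of genes: Fetub (0.58 ± 0.25), Rbp4 (0.51 ± 0.17) and Vtn (0.53 ± 0.19), with limma adjusted p from 0.550 to 0.699. These share the WDF males with the first comparison. Vtn did not overlap, with CDF males at 29.4, 27.6, 30.7, 19.1 and 24.7 kilocounts, against 1.03% of genes. With library weights Rbp4 and Vtn passed, against 1.57% of genes (241 of 15377). Other markers differed here too: 5 of 5 megakaryocyte markers were higher in WDF males, with sums of 4395 to 5823 normalized counts against 2669 to 4790 in CDF males. Of the lung markers 9 of 10 were higher, with sums of 917 to 9421 against 906 to 1079. Without WDF male 2, the library at 9421, the differences were 0.52 for Fetub, 0.49 for Rbp4 and 0.48 for Vtn. The part of the megakaryocyte markers was not tested.

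In females, maternal fat at 2 mg/kg gave 1 member with an unadjusted p under 0.05, against 3.06% of genes higher in that way. This was Vtn, at 33.5, 42.4, 26.6, 42.7 and 37.9 kilocounts in WD females and 27.0, 24.6, 25.7 and 23.3 in CD females (log2 difference 0.52 ± 0.20, limma adjusted p = 0.662). The groups overlapped between WD female 3 and CD female 1, and no member was without overlap, against 2.56% of genes. The erythroid sum was 1828058 to 4294768 normalized counts in WD females and 1489719 to 2305820 in CD females, with 16 of 16 erythroid markers higher in WD females, and with the erythroid covariate the Vtn difference was 0.26. Markers of other tissues were lower in WD females: 6 of 6 mesothelial, 5 of 5 endothelial, 10 of 10 lung and 6 of 6 heart markers. The highest CD female, CD female 5, had sums of 41732 normalized counts for lung, 15761 for heart and 3500 for mesothelium, against highest WD values of 3748, 161 and 1286. Endothelial sums were 3476 to 3868 in CD and 2915 to 3721 in WD females. Without CD female 5 the Vtn difference was 0.49. At 10 mg/kg 0 of 10 members met the p rule (8.14% of genes) and none lacked overlap (0.735%). There Alb was 0.29 ± 0.21 and Fetub -0.37 ± 0.27 in WDF minus CDF females. The CDF females include CDF female 4, the second lowest of the 38 in Alb (658 kilocounts) and the highest in Fetub (8.67). No value without that library is given for these differences.

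Averaged over strata, maternal fat gave 1 member with an unadjusted p under 0.05 (Vtn, 0.22 ± 0.10, limma adjusted p = 0.614; 0.064 with the erythroid covariate), against 3.25% of genes higher in that way, and 0 members past adjustment, against 0.0455% of genes. Folic acid averaged over strata gave 0 of 10 (2.33% of genes), with differences from -0.02 for Alb to 0.16 for Fetub. Females minus males gave 0 of 10 (3.10% of genes; 0.0585% past adjustment), with the largest difference in Ttr, 0.12 ± 0.07.

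**Figure D4:**
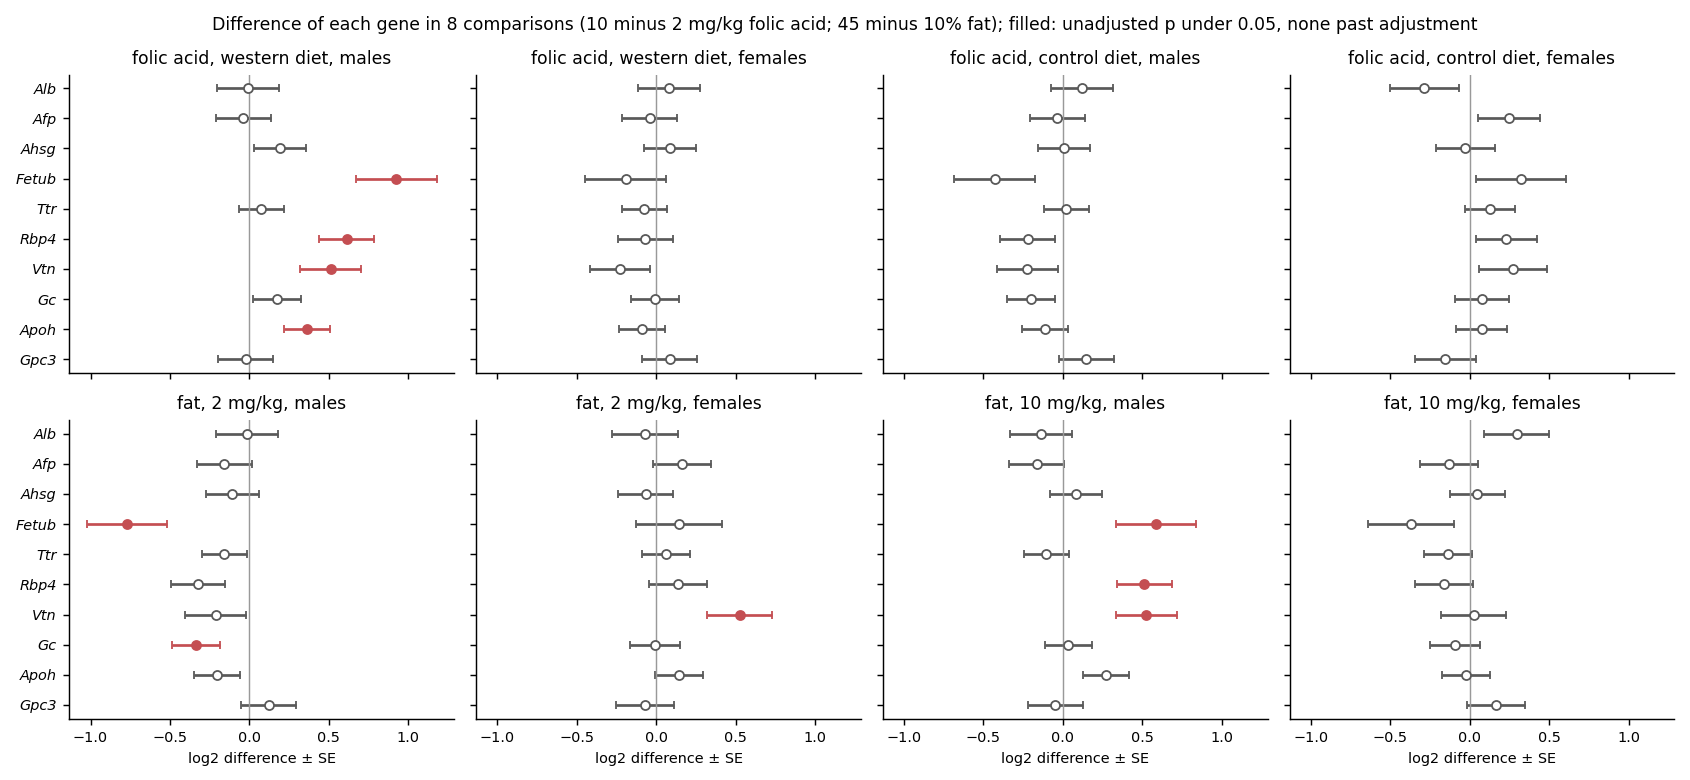
Log2 difference ± SE of each of the 10 genes (rows) in 8 comparisons (panels: 10 minus 2 mg/kg folic acid in the upper row, 45 minus 10% fat in the lower); filled red points have an unadjusted limma p under 0.05. In the panel for folic acid in western diet males, Fetub (0.93), Rbp4 (0.61), Vtn (0.51) and Apoh (0.36) are filled, and Alb, Afp and Gpc3 lie at 0.

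The authors' deposited table for folic acid in western diet males called 4 members at an adjusted p under 0.05, all higher at 10 mg/kg, against 0.977% of its 13715 genes with an adjusted p. In the authors' deposited table, Fetub had a log2 fold change of 0.87 and an adjusted p of 1.95e-06, in place 1 of all genes by p. The authors' deposited table also called Rbp4 (0.51, adjusted p = 0.0146), Apoh (0.32, adjusted p = 0.0361) and Vtn (0.41, adjusted p = 0.0439), and not Gc (adjusted p = 0.544) or Alb (adjusted p = 0.998). These are the 4 genes with the smallest unadjusted p among the members in the fit above, which was made on normalized values of the same libraries and is no independent support. In the authors' deposited tables for western diet females, control diet males and control diet females no member was called, against 0%, 0.0437% and 0.0216% of genes. The deposited fold changes and the limma differences are different measures and are not to be compared in size. For folic acid in control diet males, Fetub was at 2.0e-05 (SE 0.0014) in the deposited table and -0.43 ± 0.25 in limma.

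Over the libraries, most of the 10 genes fell into 2 sets that varied together, described here after their values were seen. Alb, Ahsg and Gpc3 formed one: Alb with Gpc3 had r = 0.88, Alb with Ahsg 0.73 and Ahsg with Gpc3 0.69 (adjusted permutation p = 4.36e-05 for each; rho 0.69 to 0.87). Without CD male 4 and CDF female 4 these r were 0.63 to 0.84. Fetub, Rbp4, Vtn, Gc and Apoh formed the other, with r from 0.50 to 0.80 over its 10 pairs (rho 0.45 to 0.83; all 10 with an adjusted permutation p under the threshold, the largest being 0.00403 for r and 0.0156 for rho). Without those 2 libraries their r were 0.50 to 0.80, and on deviations from group means 0.51 to 0.75. Without the 2 libraries farthest from the median of the first gene of a pair they were 0.44 to 0.80. Between the sets, r over 15 pairs ran from -0.45 (Alb with Vtn) to 0.38 (Ahsg with Apoh), and 3 of the 15 passed adjustment: Alb with Vtn (adjusted permutation p = 0.0133), Gpc3 with Vtn (r = -0.43, adjusted permutation p = 0.019) and Ahsg with Apoh (adjusted permutation p = 0.0483). Without CD male 4 and CDF female 4 the range was -0.33 to 0.50, and 2 pairs passed: Ahsg with Apoh (r = 0.50, adjusted permutation p = 0.0061) and Ahsg with Rbp4 (r = 0.46, adjusted permutation p = 0.0111). The highest of these r was close to the lowest r within the second set.

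The chromosome neighbours Ahsg and Fetub fell in different sets, and of the neighbours Alb and Afp only Alb was in a set. Ahsg and Fetub, 18.9 kb apart, had r = 0.07 (permutation p = 0.682, adjusted p = 0.765; rho 0.08), and r was 0.28 without CD male 4 and CDF female 4. Ttr and Rbp4, whose proteins form 1 complex in plasma, had r = 0.05 (permutation p = 0.777, adjusted p = 0.828), while Ttr with Gc had r = 0.62 (adjusted permutation p = 8e-05; rho 0.66). Without CD male 4 and CDF female 4, 3 Ttr pairs passed by r, all with genes of the second set. These were Gc (r = 0.69), Fetub (0.47, adjusted permutation p = 0.0105) and Vtn (0.43, adjusted permutation p = 0.0183). Ttr did not pass with Rbp4 or Apoh, so the border of that set is not sharp. Afp had its strongest relations with Alb (r = -0.45) and Ahsg (r = -0.40, adjusted permutation p = 0.0334, and rho -0.33, adjusted permutation p = 0.0913). With the others its r ran from -0.29 (Gpc3) to 0.27 (Vtn). Without CD male 4 and CDF female 4, Afp had r from -0.21 to 0.22 with the other members and no pair passed. All these values share libraries, scaling and cell mixture.

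**Figure D5:**
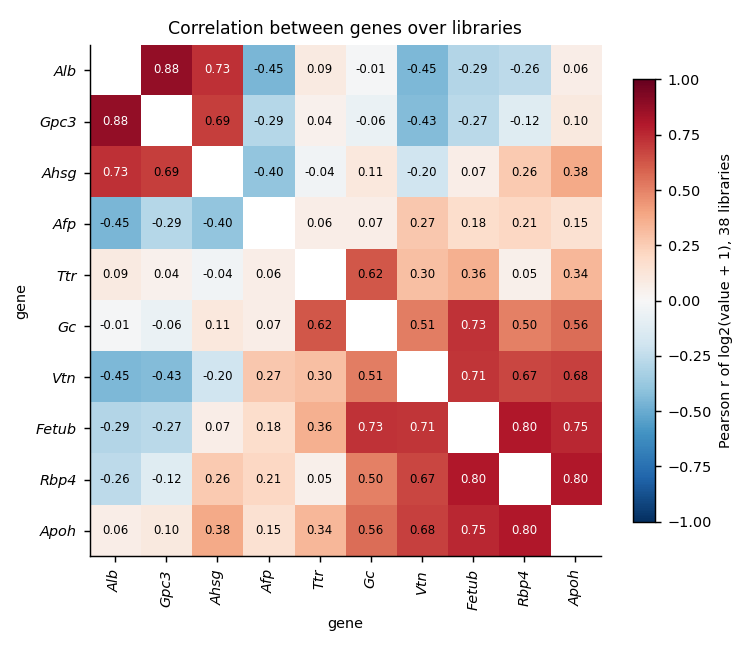
Pearson r of log2(value + 1) between each pair of the 10 genes over 38 libraries (red positive, blue negative, value in each square). Alb, Gpc3 and Ahsg form a block at 0.69 to 0.88 and Gc, Vtn, Fetub, Rbp4 and Apoh a block at 0.50 to 0.80.

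Among 10098 genes with a mean value of at least 100, the 5 most like Alb over the 38 libraries by Pearson r were F11 (0.94), Fga (0.94), Dpyd (0.94), Atp2c1 (0.92) and Got2 (0.91). F11 and Fga encode a clotting factor and a fibrinogen chain. Those most like Afp were Ppp6c (0.82), P4hb (0.80), Magt1 (0.77), Dync1i2 (0.77) and Amd1 (0.76). The nearest to Gpc3 was Alb itself (0.88), then Itm2b (0.86), Hsdl2 (0.85), Aldh6a1 (0.84) and Hsd17b4 (0.83). CD male 4 and CDF female 4, the lowest in Alb and Gpc3 and the highest in Afp, are among the 38 libraries. These r were not computed without them, so whether they rest on those libraries was not tested.

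Lists of related genes were followed in the comparison of WDF with WD males, where 4 members had an unadjusted p under 0.05. The erythroid, megakaryocyte and lung marker values of these groups, given above, differ too, and their part in the list values was not tested. In this comparison 51.4% of all genes were higher in WDF males. Genes of a list share libraries, scaling and cell mixture, so their counts are not made of independent results. Of 37 other secreted hepatocyte proteins tested, 29 were higher and 8 lower in WDF males, with a median log2 difference of 0.13 against 0.01 for all genes; 10 were higher and 1 lower with an unadjusted p under 0.05, rules met by 4.77% and 4.04% of all genes. Apoe, a lipoprotein component (0.54 ± 0.13), Igfbp2, an IGF-binding protein (1.72 ± 0.44), and Trf, the iron carrier transferrin (0.46 ± 0.15), were among the higher ones. Serpina6, the corticosteroid carrier, was the lower one (-2.07 ± 0.60). None passed adjustment (limma adjusted p from 0.336 to 0.455 for these 4). Igfbp2 was not among the list genes that the authors' deposited table called. For the others, the authors' deposited table gave Apoe 0.48 (adjusted p = 0.00239), Trf 0.40 (adjusted p = 0.0162) and Serpina6 -0.08 (adjusted p = 0.0361). As said above, these fold changes are not to be compared in size with the limma differences.

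Of 18 genes of the maturing hepatocyte tested, 17 were higher in WDF than in WD males (median 0.34), against 51.4% of all genes. Of these, 5 had an unadjusted p under 0.05, against 4.77% of all genes. These included Hsd17b13, a lipid droplet enzyme (0.33 ± 0.13), Hpd, a tyrosine-degrading enzyme (0.67 ± 0.28), Cyp2e1 (1.42 ± 0.63) and Cyp8b1, a bile acid enzyme (0.67 ± 0.30). Of 17 regulators of Alb and Afp tested, 10 were higher (median 0.18), 4 with an unadjusted p under 0.05 (4.77% of all genes): Foxa3 (0.41 ± 0.17), Cebpb (0.77 ± 0.32), Foxa2 (0.38 ± 0.17) and Nr0b2 (0.92 ± 0.42). Of 12 fetal liver genes, 6 were higher and 6 lower (median -0.02), with Igf2 at 0.46 ± 0.17 and Lin28b at -0.51 ± 0.23.

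Of 15 genes of the secretory route, through which the members' proteins leave the cell, 13 were lower in WDF males (median -0.33), 5 with an unadjusted p under 0.05, against 4.04% of all genes. These included Ssr1 (-0.69 ± 0.20) and Ssr3 (-0.41 ± 0.14), subunits of the translocon-associated complex, the coat protein gene Sec23b (-0.33 ± 0.13) and the chaperone gene Hspa5 (-0.50 ± 0.21). In the comparison of WD with CD males, which shares the WD males, 13 of the 15 were higher (median 0.22) and 15 of the 18 genes of the maturing hepatocyte lower (median -0.25). Of all genes, 47.7% were higher in WD males there. In western diet females the folic acid medians were -0.08 for the secretory route and 0.06 for the maturing hepatocyte. Of 3 other genes of the fetuins' cystatin family, 3 were higher in WDF than in WD males, with Hrg at 0.85 ± 0.40. Of 5 others of retinol and thyroxine transport, 3 were higher, with Rbp2, a cellular retinol carrier, at 0.96 ± 0.38. No list gene passed adjustment in the limma fit of these comparisons. Among list genes, the authors' deposited table for western diet males called Ssr1 (-0.62, adjusted p = 0.00143), Rbp2 (0.78, adjusted p = 0.0174), Hpd (0.55, adjusted p = 0.0210), Igf2 (0.39, adjusted p = 0.0383) and Cebpb (0.60, adjusted p = 0.0400). Apoe, Trf, Serpina6, Apoc3, Hp and Apoa1 were called too. Ssr1 and Serpina6 were lower at 10 mg/kg and the others higher. Of all genes with an adjusted p there, 0.977% were called higher, and the share of list genes called was not computed.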

How the data were processed

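RNA was measured in 40 libraries of mouse fetal liver by paired 43-nt reads of directional poly(A) libraries, as the labels' protocols state. The tools were DESeq2 1.24, Salmon 1.3.0, STAR 2.7.3a and Trimmomatic 0.39, with the mm10 build, per the submitters' processing notes, which give no role for each. The deposited gene values are a signal, read counts that the authors had divided by size factors (recomputed median-ratio factors were equal, 1.01, in all libraries). The authors also deposited 4 comparison tables with log2 fold changes, p-values and adjusted p-values; these were copied only. 1 column whose name lacked a sex was assigned to the sample title left over. No pair of libraries was identical (highest r 0.982).

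Genes reaching a value of 10 in 5 or more libraries (15377) were fitted on log2(value + 1) by limma 3.58.1 in R 4.3.3 over 38 libraries, with 8 group means, a mean-variance trend and robust moderation, Benjamini-Hochberg adjusted over all genes; the threshold was 0.05. The log2 scale understates changes of low genes. The Alb to Afp ratio was tested by exact permutation and relations between genes with 100000 permutations (scipy 1.17.1), adjusted over 48 relations. Lengths are of the transcript with the longest coding sequence in GENCODE M21, which holds 20563 of the 20593 gene IDs. The members, lists and tests were chosen with earlier results of these data known. From each list up to 4 genes with the smallest unadjusted p under 0.05 are named per comparison described. The limma step was tested on simulated data. Alternatives were other sets of libraries, library weights, other pseudocounts, filters and scalings, an erythroid covariate, a replicate block, smaller fits and leaving out each library. Depth in reads is unknown, so precision rests on the spread between libraries.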

Additional observations from a re-analysis of the deposited data

Results flagged for a closer look

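Of 88 sets of values checked (10 genes and the ratio in 8 groups), 5 had a library whose gap to its nearest neighbour was large against the group's range; chance gives about 1 in 20. Ttr was at 68.3 kilocounts in WDF female 3, against 53.1 to 56.9 in the other 4 WDF females. Vtn was at 48.9 in CD male 4, against 24.9 to 29.4 in the other CD males. Gc was at 25.2 in CD female 5, against 34.3 to 36.2 in the other 3 CD females used. Apoh was at 49.5 in WD male 1, against 42.1 to 43.8 in the other WD males. Gpc3 was at 11.2 in CDF male 2, against 7.43 to 8.48 in the other CDF males. CD male 4 is 1 of the 2 libraries with less Alb than Afp, and CD female 5 has the highest lung marker sum of the 38.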

How the results depend on the processing

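The count of members past the threshold was 0 in all 14 comparisons and stayed 0 in 448 of 454 recomputed counts. The other 6 all came from library weights, which gave 2 members for folic acid in western diet males, 2 for fat at 2 mg/kg in males, 2 for fat at 10 mg/kg in males, 1 for fat over strata, 2 for the diet difference of the folic acid effect in males and 3 for the sex difference of that effect. With those weights 621, 145, 241, 486, 397 and 579 genes passed in these 6 comparisons; the cause was not tested. For fat over strata, 7 genes passed in all, 3 with all 40 libraries, 11 without the 4 highest in Sftpc, 19 without CD male 4 and CDF female 4 (an alternative chosen after seeing the data), 11 at a pseudocount of 5, 11 when scaled by the sum without members, and 2 with a replicate block. 1 gene passed for fat at 2 mg/kg in males when scaled by that sum and 1 with the erythroid covariate, and 1 for fat at 2 mg/kg in females when only the groups compared were fitted. Leaving out each library in turn gave 3 to 53 genes for fat over strata (53 without CDF male 2), 0 to 8 for fat at 10 mg/kg in males (8 without CDF male 2), 0 to 2 for folic acid in western diet males, and 0 to 1 for fat at 2 mg/kg in males and in females, fat at 10 mg/kg in females and folic acid in control diet females.

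For folic acid in western diet males the Fetub difference was 0.85 to 1.06 over 25 settings, and the Alb and Gpc3 differences, near 0, changed sign: 0.013 and 0.030 with library weights, 0.0055 for Alb with upper-quartile scaling, and -0.090 to 0.057 for Alb and -0.082 to 0.060 for Gpc3 when libraries were left out. The ratio difference changed sign for CDF minus CD males (-0.20 without CD male 4; -0.20 to 0.30 over left-out libraries), WD minus CD males (-0.20; -0.20 to 0.29), WDF minus WD males (-0.057 to 0.14) and WDF minus CDF males (-0.089 to 0.12). Alb with Afp had r = 0.97 in all 40 libraries and 0.024 in 36; Afp with Gpc3, -0.29 in 38, had 0.75 and 0.22; the erythroid level with Alb had 0.94 in all 40. Correlations of deviations in same-numbered pairs ran from -0.54 to 0.27, and 11 of 38 libraries matched their own replicate number best. The count to be met without any pairing was not computed, so this check cannot show that the libraries are unpaired. With that replicate block 0 members passed in every comparison and, beside fat over strata, no count of genes moved by over 1.5 times. Depth in reads is unknown, and 4 or 5 fetuses a group limit the precision.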
